A study of Arabidopsis thaliana with 6 samples.

Results

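The set grouped here as SABATH carboxyl methyltransferases holds 9 Arabidopsis thaliana genes. These are AT1G15125, BSMT1 (AT3G11480), GAMT1 (AT4G26420), GAMT2 (AT5G56300), IAMT1 (AT5G55250), NAMT1 (AT5G04370), FAMT (AT3G44860), PXMT1 (AT1G66700) and AT5G38020. They account for 10 of the 30237 rows and 9 of the 29920 loci of the expression table. The set was chosen by locus code because transcript of AT1G15125 was over 20-fold higher in the ERF6-overexpressing line, so the difference of that gene is given as a description with no test. The rule used no value of the other 8 genes.

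Leaf 3 was dissected from Col-0 seedlings at an age labelled 9 DAS and hybridised to AGRONOMICS1 tiling arrays, 1 biotin-labelled RNA sample per array. The groups were 3 arrays of ERF6:IOE, a strong overexpression line of the ERF6 transcription factor, and 3 arrays of GFP:IOE, the control line. Both lines were kept on 5 µM dexamethasone for the last 4 h, so there was no array without the inducer and any difference between the lines before induction is included. Each genotype was represented by 1 line, the arrays are numbered as biological repeats 1 to 3, and the series' design text places the samples in independent experiments with plants of several plates. The sources used here do not name the promoter or the cells that drive the transgenes.

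SABATH enzymes typically transfer a methyl group from S-adenosylmethionine to the carboxyl group of small acids, many of them hormones. The methyl esters of hormones are generally inactive or act as mobile or volatile forms, and methyl esterases of the MES family can return the free acid. In leaves the family is best known for methyl salicylate and methyl jasmonate, which are released after attack or wounding, and for methylation of the auxin indole-3-acetic acid, which affects leaf shape. ERF6 is an activator of the ethylene response factor family.

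ERF6 transcript, which checks the labels, had log2 values of 9.99, 9.97 and 10.4 in ERF6:IOE, against 6.89, 7.38 and 7.55 in GFP:IOE. The lines did not overlap, and the log2 difference was 2.85 (SE 0.20, limma adjusted p 0.00107). Of the leaf markers, 4 of 5 had a row (RBCS1A, RCA, CA1 and PSBO1), and all 4 lay above the upper quartile of every array, at log2 values from 11.1 to 14.2. Summed over these 4, the log2 values ran from 50.1 to 50.5 in ERF6:IOE and from 49.4 to 50.6 in GFP:IOE. Of 5 root markers, PYK10, which encodes a beta-glucosidase, lay above the upper quartile of every array, and the summed list ran from 28.8 to 29.2 in ERF6:IOE and from 29.3 to 29.6 in GFP:IOE. Of 5 shoot meristem and floral markers none lay above it, with sums from 21.1 to 22.7 in ERF6:IOE and from 21.5 to 22.8 in GFP:IOE. None of these 14 markers passed the test, against 0.724% of all rows. By absolute moderated t the leading ones were CA1 (log2 difference 0.27) and RCA (0.11) for leaf, SCR (-0.24) and EXPA7 (-0.14) for root, and AG (-0.35) and KNAT1 (0.12) for meristem and flower. Whether these samples held root or floral RNA, and any part of it in the results, was not tested.

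AT1G15125 was the one gene of the family with a large difference. Its log2 expression values were 9.77, 9.57 and 9.72 in ERF6:IOE, against 5.33, 5.18 and 5.24 in GFP:IOE. All 3 arrays of ERF6:IOE were high, all 3 of GFP:IOE were low, and the arrays of a line lay close together. The mean was 9.69 ± 0.10 in ERF6:IOE and 5.25 ± 0.08 in GFP:IOE (SD, n = 3 each), a log2 difference of 4.44 or 21.7-fold. The name table gives this locus no symbol, and the sources used here do not name its substrate. In whole leaves, more cells that express the gene and more RNA per cell cannot be told apart.

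The size of the difference placed AT1G15125 at rank 9 of 30237 rows, and 9 rows (0.0298%) were at least 20-fold higher in ERF6:IOE. AT1G15125, at 21.7-fold, was the row just inside that limit, and AACT1, an acyltransferase gene, was just outside it at 15.5-fold, a value set against 3 GFP:IOE arrays below their lower quartile and so approximate. Among the genes of the set itself the next value after AT1G15125 was 1.34-fold, in a row of PXMT1.

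In GFP:IOE, AT1G15125 was brighter than most of those 9 rows, but its values (5.18 to 5.33) were not far above the array medians. The floral marker AG reached 5.10 in GFP:IOE, and detection was not analysed, so the fold of AT1G15125 is not exact. RMA, the summary the authors used, compresses values near the floor, and a fold against a dim baseline is therefore approximate. In GFP:IOE all 3 values of AT1G15125 lay above the median of their array (4.85 to 4.90), as did those of 1 other of the 9 rows, the lectin gene AT3G16530. At least 1 GFP:IOE value lay below the lower quartile of its array (4.03 to 4.08) for 5 of the 9 rows, and all 3 did for DIN11, LCR67 and AT1G27020. In ERF6:IOE the 3 values of AT1G15125 lay above the upper quartile. The spread of AT1G15125 within a line was 0.09 (pooled SD on the log2 scale), against a median of 0.16 over all rows, and 16.7% of rows had a smaller one.

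**Figure D1:**
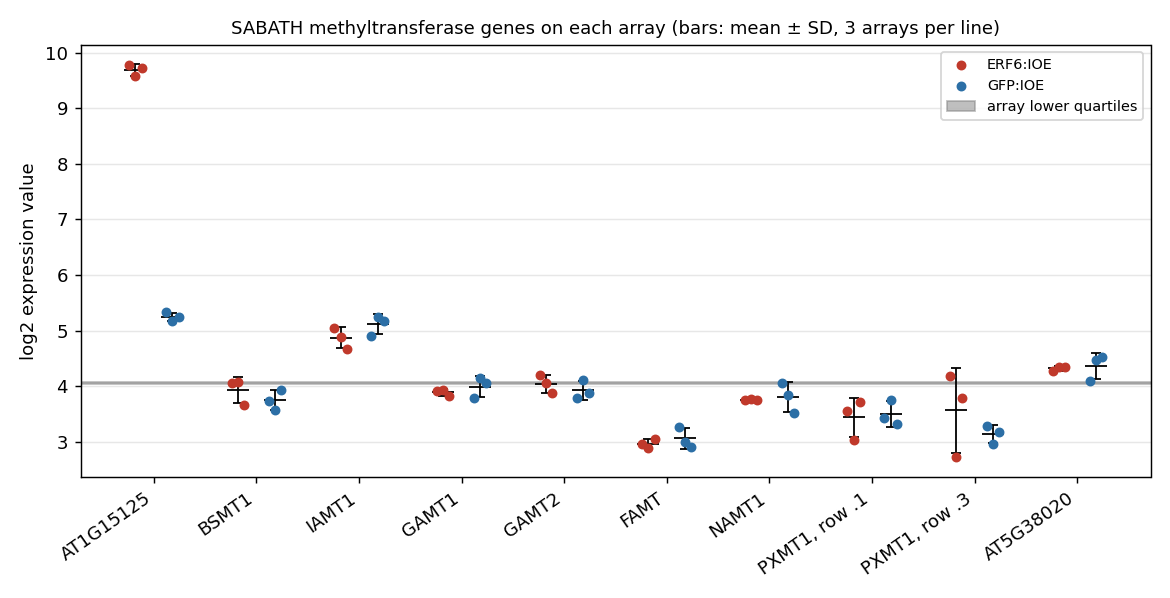
Log2 expression value (vertical axis) of the 9 SABATH genes on each array, with the 3 arrays of ERF6:IOE to the left of the 3 arrays of GFP:IOE for each gene. Black bars give the mean ± SD and the grey band the lower quartiles of the 6 arrays; AT1G15125 stands apart at 9.57 to 9.77 in ERF6:IOE, and the lines overlap in the other 9 rows.

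None of the other 8 genes passed the test. In the same fit 219 of 30237 rows (0.724%) passed at a Benjamini-Hochberg adjusted p of 0.05, 211 higher (0.698%) and 8 lower (0.0265%). The 8 genes had adjusted p-values from 0.766 to 0.971 (limma), and 0 of 8 reached an unadjusted p under 0.05, against 8.02% of all rows. By the brighter row of each locus, the lines overlapped in all 8, while 13.5% of all rows did not overlap. The median log2 difference of the 8 was -0.06, beside -0.02 over all rows, with 2 values above 0 and 6 below. For each of these 8 rows the 95% interval lay within 2-fold either way, with bounds from -0.57 to 0.53 on the log2 scale over all of them, whereas that of the second row of PXMT1 reached 1.22. These intervals bound the difference in the deposited values, which for dim rows are compressed.

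BSMT1, which methylates salicylic and benzoic acid, had log2 values of 4.05, 4.08 and 3.67 in ERF6:IOE, against 3.74, 3.58 and 3.93 in GFP:IOE. The value of ERF6:IOE repeat 3 was lower than 2 of the 3 values of GFP:IOE, and the lines overlapped. The log2 difference was 0.18 (95% interval -0.17 to 0.53, limma adjusted p 0.859). All but 1 of the 6 values lay below the lower quartile of their array.

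IAMT1, which methylates indole-3-acetic acid, was measured above the lower quartile on all 6 arrays. It had log2 values of 5.06, 4.88 and 4.68 in ERF6:IOE, against 4.91, 5.25 and 5.18 in GFP:IOE. The lines overlapped, since repeat 1 of GFP:IOE lay below repeat 1 of ERF6:IOE. The log2 difference of -0.24 (95% interval -0.57 to 0.09) had the smallest adjusted p of the 8 genes, 0.766 (limma).

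GAMT1 and GAMT2 methylate gibberellins, an activity known mainly from developing seeds. GAMT1 had log2 values of 3.92, 3.93 and 3.82 in ERF6:IOE, against 3.78, 4.15 and 4.06 in GFP:IOE. GAMT2 had 4.21, 4.06 and 3.88 in ERF6:IOE, against 3.80, 4.11 and 3.87 in GFP:IOE. The ranges of the lines overlapped for both genes. The log2 differences were -0.10 (95% interval -0.39 to 0.18, limma adjusted p 0.91) for GAMT1 and 0.12 (-0.19 to 0.43, 0.902) for GAMT2. Below the lower quartile of their array lay 5 of 6 values of GAMT1 and 3 of 6 of GAMT2.

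FAMT, named for the methylation of farnesoic acid, was dim throughout, with all 6 values below the lower quartile. They were 2.96, 2.90 and 3.05 in ERF6:IOE, against 3.28, 3.00 and 2.92 in GFP:IOE. The lines overlapped, with a log2 difference of -0.09 (95% interval -0.38 to 0.19, limma adjusted p 0.923). NAMT1, a nicotinic acid methyltransferase gene, had 3.75, 3.78 and 3.75 in ERF6:IOE, against 4.07, 3.84 and 3.53 in GFP:IOE. All 3 values of ERF6:IOE lay inside the range of GFP:IOE, and the SD was 0.01 in ERF6:IOE and 0.27 in GFP:IOE. The log2 difference of NAMT1 was -0.05 (95% interval -0.39 to 0.29, limma adjusted p 0.965). Of the 6 values of NAMT1, 5 lay below the lower quartile of their array.

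PXMT1, annotated by name as a paraxanthine methyltransferase, was the one gene of the set with more than 1 row. Both rows were dim, with 6 of 6 values of the brighter row and 5 of 6 of the dimmer below the lower quartile of their array. Brighter refers to the mean over all 6 arrays, since in ERF6:IOE alone the order was reversed (3.44 against 3.57). The brighter row had log2 values of 3.57, 3.04 and 3.72 in ERF6:IOE, against 3.43, 3.76 and 3.32 in GFP:IOE. The dimmer row had 4.19, 2.73 and 3.79 in ERF6:IOE, against 3.28, 2.96 and 3.19 in GFP:IOE. In both rows repeat 2 of ERF6:IOE was the lowest of the 6 arrays. The dimmer row was also among the most variable in the table, with a pooled within-line SD of 0.55 that exceeded that of 98.1% of rows. The rows differed in sign, at -0.06 (95% interval -0.53 to 0.41) for the brighter and 0.43 (-0.37 to 1.22) for the dimmer, and neither passed (limma adjusted p 0.971 and 0.854). The interval of the dimmer row reached beyond 2-fold, so a difference of that size lay within its error.

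AT5G38020, an unnamed gene of the set, lay above the lower quartile on all 6 arrays. Its log2 values were 4.27, 4.34 and 4.36 in ERF6:IOE, against 4.10, 4.47 and 4.53 in GFP:IOE. All 3 values of ERF6:IOE fell inside the range of GFP:IOE. The log2 difference was -0.04 (95% interval -0.36 to 0.27, limma adjusted p 0.968).

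The remaining 15 loci, listed as SABATH genes from general knowledge of the family and not from an annotation in the files, did not pass either. Together with the 8 genes above, 0 of 23 SABATH genes other than AT1G15125 passed (limma), against 0.724% of all rows. An unadjusted p under 0.05 was reached by 0 of 23, against 8.02% of all rows. With so few genes, a count of 0 is not far from either share. Log2 differences of the 23 ran from -0.41 (AT3G44840) to 0.32 (AT5G37970), with 9 above 0 and 14 below. The lines did not overlap in 1 of 23, against 13.5% of all rows. That gene was AT1G68040, with log2 values of 4.51, 4.56 and 4.53 in ERF6:IOE, against 4.65, 4.83 and 4.73 in GFP:IOE (difference -0.20, limma adjusted p 0.674). Every array was below its lower quartile for 6 of the 23, and none was for 6.

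JMT, which makes methyl jasmonate, had log2 values of 4.15, 4.46 and 4.35 in ERF6:IOE, against 4.46, 4.36 and 4.54 in GFP:IOE. The lines overlapped (difference -0.13, 95% interval -0.40 to 0.14, limma adjusted p 0.871). AT5G37990 had a log2 difference of -0.27 (95% interval -0.58 to 0.03) and AT1G66690 of 0.27 (-0.03 to 0.58), with limma adjusted p-values of 0.674 and 0.687. By the brighter row of each locus, the interval lay within 2-fold either way for 22 of the 23 genes. The exception beside the second row of PXMT1 was AT5G37970, with log2 values of 3.92, 5.12 and 4.15 in ERF6:IOE, against 4.57, 3.33 and 4.34 in GFP:IOE and an upper bound of 1.25. Repeat 2 was the highest value of AT5G37970 in ERF6:IOE and the lowest in GFP:IOE.

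**Figure D2:**
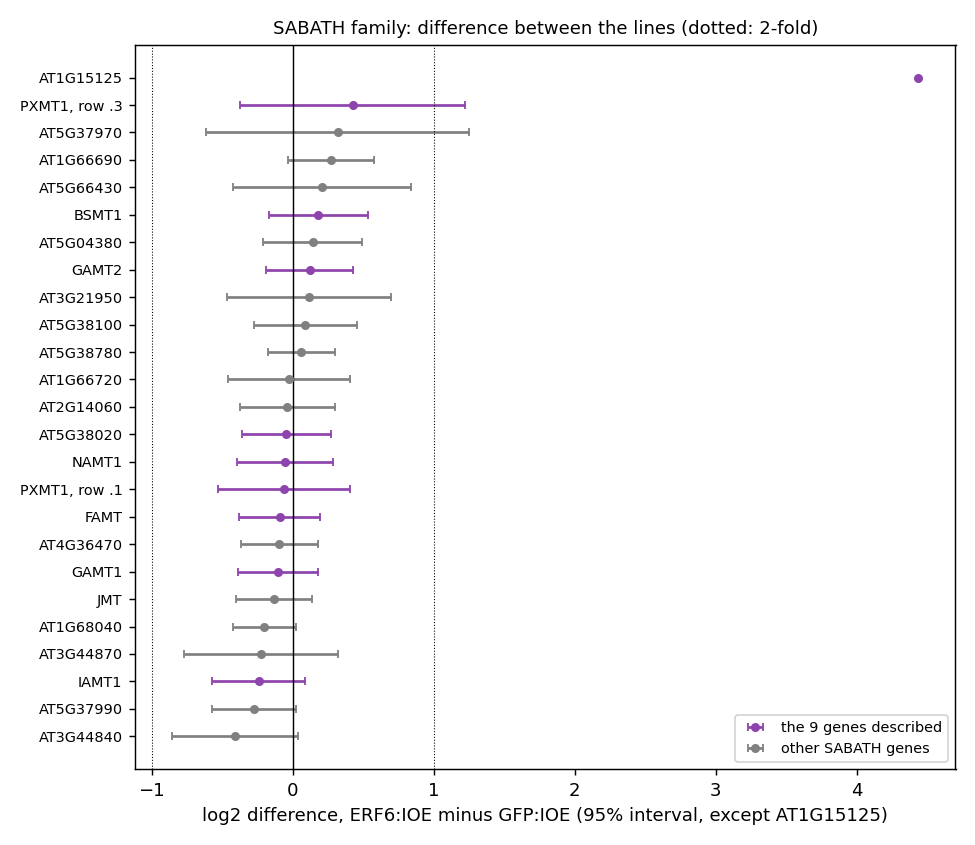
Log2 difference, ERF6:IOE minus GFP:IOE, (horizontal axis) for each row of the 24 SABATH genes, sorted by the difference, with 95% intervals except for AT1G15125. AT1G15125 lies at 4.44; the other rows lie between -0.41 and 0.43, and dotted lines mark a 2-fold difference.

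Several of these genes stand next to each other in the genome. In the order of protein-coding genes in the name table, FAMT was adjacent to AT3G44870, NAMT1 to AT5G04380, and PXMT1 to both AT1G66690 and AT1G66720. AT5G38020 was separated from AT5G37990 by 2 genes. For AT1G15125 the nearest SABATH gene was JMT, with 464 genes between them. Tandem copies can be close in sequence, and signal shared by their probes was not separated. On ERF6:IOE repeat 2, the array on which PXMT1 was lowest, AT1G66690 had its highest value of the 6 arrays (4.59) and AT1G66720 its lowest (3.80).

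Read by the brighter row of each locus, the genes around AT1G15125 did not share its difference. Other rows of these loci, if any, are not given. On one side, AT1G15120 had log2 values of 10.7, 10.9 and 10.6 in ERF6:IOE, against 10.7, 10.6 and 10.5 in GFP:IOE. On the other, AT1G15130 had 5.47, 5.59 and 5.62 in ERF6:IOE, against 5.54, 5.63 and 5.64 in GFP:IOE. The lines overlapped in both, with log2 differences of 0.08 (95% interval -0.19 to 0.36, limma adjusted p 0.927) and -0.05 (-0.27 to 0.18, 0.958). PSS1, a phosphatidylserine synthase gene beyond AT1G15120, differed by 0.06 and AT1G15140 beyond AT1G15130 by -0.13, and neither passed (limma adjusted p 0.944 and 0.857). In the name table, which is of another build than the arrays' annotation, the range of AT1G15120 overlaps that of AT1G15125. Signal from the shared stretch was not separated.

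**Figure D3:**
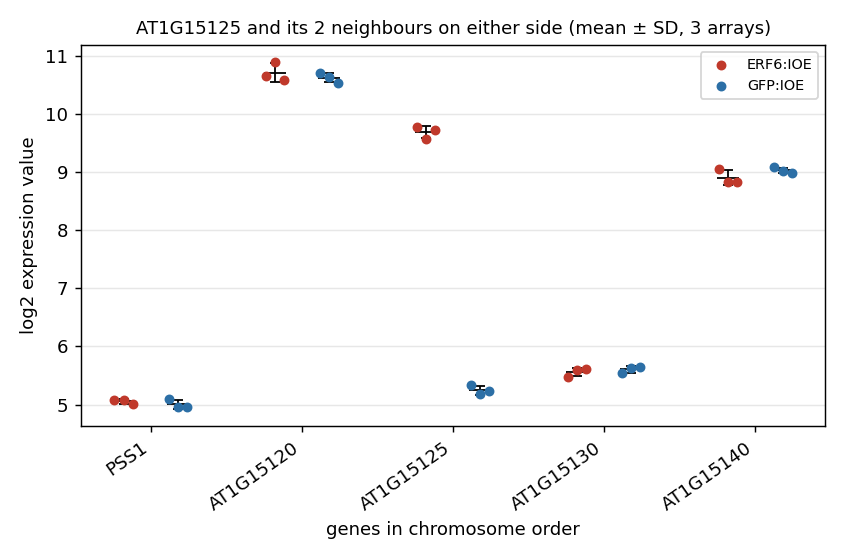
Log2 expression value (vertical axis) of AT1G15125 and the 2 protein-coding genes on either side, in chromosome order, with the arrays of ERF6:IOE left of those of GFP:IOE and black bars for the mean ± SD. The lines stand apart in AT1G15125 (9.69 against 5.25) and overlap in its 4 neighbours, each read by its brighter row.

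Genes with the pattern most like that of AT1G15125 were ranked by the root mean square distance between log2 values centred on each row's mean over the 6 arrays. The closest was AACT1 (distance 0.32), followed by the transcription factor gene RAP2.9 (0.35), the lectin gene AT1G78850 (0.47), AT1G27020 (0.55) and the zinc finger gene ZAT6 (0.61). The median distance over all other rows was 2.23. Each of the 5 separated the lines, so the likeness is mainly that of the difference between them. AACT1, RAP2.9 and AT1G27020 had all 3 GFP:IOE values below the lower quartile, so their distances and the order are approximate, and no correlation over the 6 arrays is given because they fall into 2 clusters. Within ERF6:IOE, repeat 2 had the lowest value in AT1G15125 (9.57), AACT1 (7.46), RAP2.9 (6.80) and ZAT6 (7.47), but not in AT1G27020 (9.10) or AT1G78850 (10.4). For AT1G15125 this gap between repeats is small beside that in ZAT6, which ran from 7.47 to 8.34 in ERF6:IOE.

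**Figure D4:**
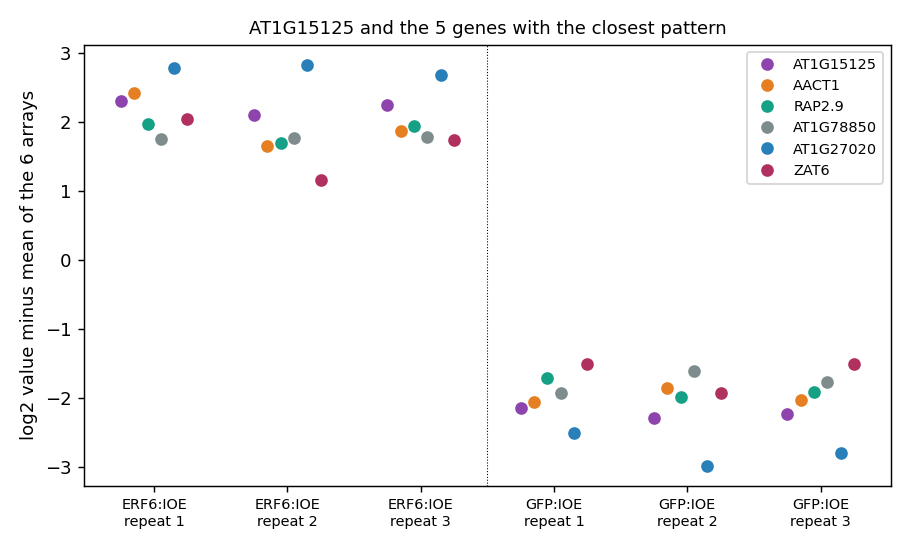
Log2 value minus the gene's mean over the 6 arrays (vertical axis) on each array of ERF6:IOE and GFP:IOE (horizontal axis), for AT1G15125 and the 5 genes at distances from 0.32 to 0.61. Each gene is high on all 3 arrays of ERF6:IOE and low on all 3 of GFP:IOE.

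Genes that act before, after or beside these enzymes were listed by role and read from the same fit, each locus by its brighter row. Over all rows 0.724% passed, so a list this short with none passing is near that share. The methyl donor S-adenosylmethionine is made and recycled by synthetases, methionine synthases, S-adenosylhomocysteine hydrolases and adenosine kinases. Of 11 such genes none passed, and 1 had an unadjusted p under 0.05, against 8.02% of all rows (median log2 difference -0.07). That gene was MTO3, an S-adenosylmethionine synthetase gene, with log2 values of 11.4, 11.4 and 11.5 in ERF6:IOE, against 11.0, 11.2 and 11.0 in GFP:IOE. The lines did not overlap, but the difference of 0.37 (95% interval 0.12 to 0.61) did not pass (limma adjusted p 0.317). The adenosine kinase gene ADK2 was next by absolute moderated t, at -0.14 (adjusted p 0.839).

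Of 18 MES genes, which encode methyl esterases and relatives, none passed (median -0.01). MES2 had log2 values of 5.99, 6.10 and 5.73 in ERF6:IOE, against 5.31, 5.29 and 4.75 in GFP:IOE. MES8, the locus listed just before it, had 4.84, 4.99 and 4.75 in ERF6:IOE, against 5.34, 5.30 and 5.37 in GFP:IOE. The lines were apart in both genes and in opposite directions, with log2 differences of 0.82 (95% interval 0.40 to 1.24, limma adjusted p 0.153) and -0.48 (-0.72 to -0.24, 0.143). These were the 2 of 18 MES genes with an unadjusted p under 0.05, against 8.02% of all rows, and the 2 of 18 with no overlap, against 13.5%. Both shares of the list are near those of all rows. MES8 passed in 1 alternative, a filter that kept the brighter 50% of rows (limma adjusted p 0.0489, against 0.0726 to 1 in the other alternatives).

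Among 14 genes that make or modify salicylic acid, the substrate of BSMT1, none passed, 11 had a log2 difference above 0 and the median was 0.15. The lines did not overlap in 6 of 14, not all of them higher in ERF6:IOE, against 13.5% of all rows. PAL3, a phenylalanine ammonia-lyase gene, had 4.67, 4.91 and 5.04 in ERF6:IOE, against 4.13, 4.40 and 4.25 in GFP:IOE. Its log2 difference was 0.61 (95% interval 0.31 to 0.92, limma adjusted p 0.136). EDS5, which encodes a chloroplast transporter of the salicylic acid pathway, differed by 0.33 (0.10 to 0.55, 0.331). PAL3 and EDS5 were the 2 of 14 genes with an unadjusted p under 0.05, against 8.02% of all rows.

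Among 14 genes that make or modify indole-3-acetic acid, the substrate of IAMT1, none passed, 10 had a log2 difference below 0 and the median was -0.16. The lines did not overlap in 5 of 14, against 13.5% of all rows. An unadjusted p under 0.05 (limma) was reached by 5 of 14, against 8.02% of all rows, all 5 with a log2 difference below 0. The 5 genes of the first count were not all among the 5 of the second. YUC4, a flavin monooxygenase gene of auxin synthesis, had 5.43, 5.17 and 4.63 in ERF6:IOE, against 6.06, 5.61 and 5.72 in GFP:IOE. Its log2 difference was -0.72 (95% interval -1.23 to -0.21, limma adjusted p 0.367). GH3.3, which joins the hormone to amino acids, differed by -0.44 (-0.72 to -0.15, 0.31).

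Of 14 gibberellin oxidase genes 1 passed, against 0.724% of all rows. GA2OX6, which inactivates gibberellin, rose, with 5.63, 6.10 and 6.20 in ERF6:IOE, against 3.81, 3.81 and 4.22 in GFP:IOE (log2 difference 2.03, SE 0.19, limma adjusted p 0.00413). Of its 6 values 2, both in GFP:IOE, lay below the lower quartile of their array, so the size of the difference is approximate. Without repeat 2 of both lines the call of GA2OX6 was lost (1.90, limma adjusted p 0.133). The other 13 did not pass, and the list's median was -0.13. GA2OX3, of the same enzyme class, differed by -0.29 (adjusted p 0.736). None of 7 genes of nicotinate and farnesol salvage passed, against 0.724% of all rows (median 0.05). None reached an unadjusted p under 0.05, against 8.02% of all rows. Both counts are near those shares for a list of 7. The nicotinamidase genes NIC2 and NIC1 differed by 0.16 and 0.15, with adjusted p-values of 0.827 and 0.898 (limma).

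**Figure D5:**
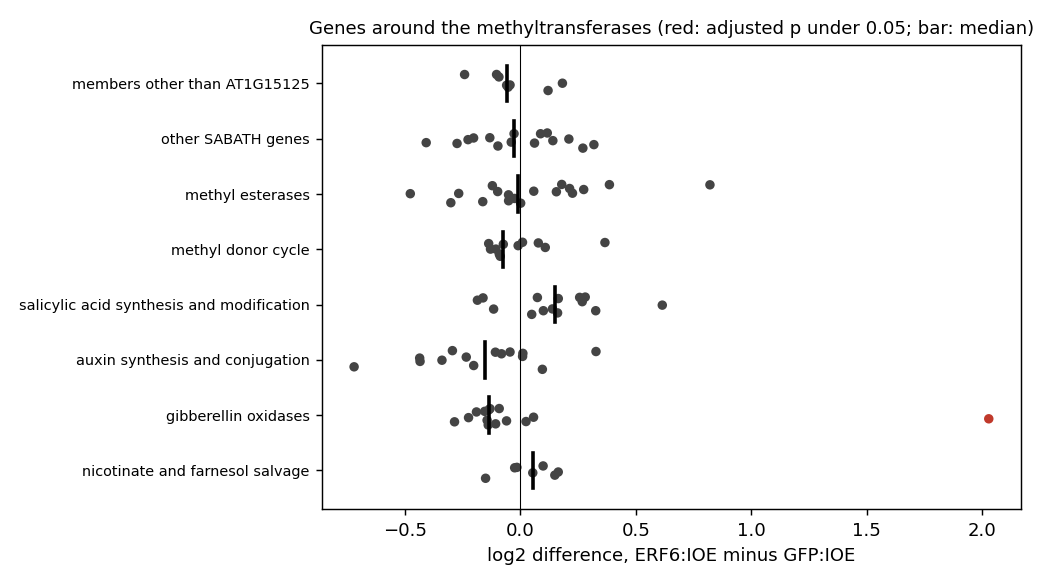
Log2 difference, ERF6:IOE minus GFP:IOE (horizontal axis), of each gene in 8 lists, with a black bar at the median of the list. GA2OX6, in red at 2.03, is the one gene that passed the test; AT1G15125 is left out, and the other genes lie between -0.72 and 0.82.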

How the data were processed

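The values are log2 expression as the authors deposited them, in 1 table of 30237 rows by 6 arrays. RMA, limma and the TAIR9 build appear in the submitters' processing notes, with no version or setting. RMA subtracts background, quantile-normalises and summarises probes. Detection was not analysed here, and precision is limited by the number of arrays.

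The fit was lmFit and eBayes of limma 3.58.1 (R 4.3.3), two-sided, on unfiltered rows, with ERF6:IOE over GFP:IOE and Benjamini-Hochberg adjustment over the whole table at 0.05. SE and 95% intervals are moderated. P-values measure the spread between these arrays. No 2 arrays were identical. The procedure was tested on simulated data, and no result of that test is given or used here.

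Symbols were matched by locus to a table of assembly TAIR10.1, which held 29715 of the rows and all 117 listed loci. Because that build is another one, coordinates are left out. A locus with several rows was represented by the row with the higher mean. Genes named were ERF6, the 9 genes, any called and up to 5 more SABATH genes or 2 per other list by absolute moderated t, the 5 nearest patterns and the 4 flanking genes. AT5G37970, AT1G66720, PYK10, AT3G16530, DIN11 and LCR67 were named with their values in view. The genes and lists were chosen with earlier results of these data known. A planned comparison of protein and promoter sequences was not run.

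Same-numbered arrays had correlations of deviations of 0.192, 0.0782 and 0.21, against -0.223 to 0.0266 for arrays with different numbers. The labels do not say whether a number marks a shared experiment. The main fit therefore did not take the repeat numbers as pairs, and a possible pairing is covered only by the block alternative. Alternatives, 19 in all, were the repeat number as a block, filters at the 30th percentile and the median of level, 3 further normalizations (quantile, median, cyclic loess), a trended and robust variance prior, array weights, a minimum fold of 1.5, 1 averaged row per locus, and fits without each array or each repeat.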

Additional observations from a re-analysis of the deposited data

How the results depend on the processing

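The log2 difference of AT1G15125, the value the genes were chosen for, ran from 4.395 to 4.494 over the alternatives. The block, filters, variance prior, minimum fold and averaged rows cannot change it. Both ends of the range came from fits that left out arrays or repeats. As the genes were chosen for this value, the range is a description and no support for it. None of the other 8 genes passed in any of the 139 values the alternatives gave for them (lowest limma adjusted p 0.466), and no other SABATH gene was called. The filters removed some dim genes. Signs changed in 12 of the 139 values, none of them called, and in 11 of the 12 an array or a repeat had been left out. With arrays or repeats left out, GAMT2 ran from -0.025 to 0.21, NAMT1 from -0.20 to 0.080, AT5G38020 from -0.18 to 0.037, FAMT from -0.21 to 0.016, PXMT1 from -0.29 to 0.27 and, beside AT1G15125, AT1G15120 from -0.0098 to 0.15. With its rows averaged PXMT1 was 0.18.

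In the fit of all rows 211 were higher and 8 lower. With the replicate number as a block there were 143 and 5. Log2 differences cannot change under the block in this balanced design, and it changed no call among the tested genes named by rule. A minimum fold left 51 higher and 1 lower, and the filters at the 30th percentile and the median gave 14 and 22 lower, with fewer rows tested. Leaving out 1 array or 1 repeat gave 45 to 126 higher and 1 to 6 lower, with fewer samples. Of the lists, 1 methyl esterase (MES8) was called with the median filter, and 0 gibberellin oxidases without replicate 2. Each array correlated best with the same number in the other line, a hint from the data and not the design. Signal over background was not analysed here.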
